A study of Mus musculus with 7 samples.

Results

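Polycomb repressive complex 2 (PRC2) was followed through its mRNAs in supporting cells of the mouse cochlea. The genes are the 10 PRC2 subunits and accessory factors Ezh1, Ezh2, Eed, Suz12, Rbbp4, Rbbp7, Jarid2, Mtf2, Phf1 and Phf19, taken by symbol from the 48709 genes of each deposited table. Each of the 10 symbols matched 1 gene, and 9 passed the filter on low counts; Phf19 did not and was not tested. The genes were named by their membership of the complex and not by any measured value.

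The 7 libraries came from cochleae taken at postnatal day 1 and kept as explants for 48 hours. In the TSA group (2 libraries) the medium held 200 nM trichostatin A, which inhibits class I and II histone deacetylases. In the GSK-343 group (3 libraries) it held 10 µM GSK-343, a small molecule that competes with the methyl donor of EZH2 and, more weakly, of EZH1. In the DMSO group (2 libraries) it held solvent alone. All 3 groups grew in a serum-free medium with EGF and FGF, were dissociated with trypsin and were sorted for GFP-positive supporting cells, the non-sensory cells around the hair cells. The labels do not name the gene that drives GFP, the mouse strain or the number of animals in a library. Nor do they give the origin of the replicates (1 culture or several), so the p-values measure the spread between these samples, which may be technical. The study asked how these 2 inhibitors of histone-modifying enzymes alter the transcriptome.

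PRC2 places methyl groups on lysine 27 of histone H3, a mark of silenced developmental genes. EZH1 or EZH2 carries the catalytic domain, EED reads the mark and switches the enzyme on, SUZ12 holds the complex together, and RBBP4 or RBBP7 binds histones. One class of complex carries PHF1, MTF2 or PHF19 and another JARID2, and both kinds of partner help it find its targets, many of them at CpG islands. EZH2 prevails in dividing cells and EZH1 in resting ones, and in the developing cochlea PRC2 is known for holding genes of alternative fates silent. The files hold mRNA estimates and no measure of histone methylation.

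The promoters of the 2 methyltransferase genes, and of the 3 members whose mRNA differed between groups, are shown because the members did not move together. Sequences come from the RefSeq table for GRCm38.p6, which had windows for 10 of 10 members (12 windows, 250 bases before to 50 bases after a start site, read 5′ to 3′ on the gene's strand). Capitals mark CCAAT boxes (CCAAT, or ATTGG on the other strand) and an E2F-type motif (TTTNNCGC, or GCGNNAAA on the other strand); in these windows the motifs do not overlap one another. The windows are chr6:47594981-47595280 (minus strand) for Ezh2, chr11:101226414-101226713 (minus) for Ezh1, chrX:162760122-162760421 (plus) for Rbbp7, chr4:129335321-129335620 (minus) for Rbbp4 and chr5:108065424-108065723 (plus) for the first of 2 Mtf2 windows.
Ezh2: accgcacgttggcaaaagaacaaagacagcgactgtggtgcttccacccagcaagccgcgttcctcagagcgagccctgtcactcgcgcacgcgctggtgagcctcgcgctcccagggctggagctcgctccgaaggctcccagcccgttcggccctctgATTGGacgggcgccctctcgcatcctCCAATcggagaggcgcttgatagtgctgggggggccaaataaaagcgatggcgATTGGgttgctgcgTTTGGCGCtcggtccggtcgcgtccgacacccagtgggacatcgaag
Ezh1: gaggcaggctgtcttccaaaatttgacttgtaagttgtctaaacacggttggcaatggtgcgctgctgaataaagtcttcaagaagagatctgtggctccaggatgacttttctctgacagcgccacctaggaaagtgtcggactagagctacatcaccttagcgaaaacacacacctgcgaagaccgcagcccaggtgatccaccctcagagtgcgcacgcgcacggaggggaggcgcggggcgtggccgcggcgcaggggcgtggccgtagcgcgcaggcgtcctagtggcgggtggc
Rbbp7: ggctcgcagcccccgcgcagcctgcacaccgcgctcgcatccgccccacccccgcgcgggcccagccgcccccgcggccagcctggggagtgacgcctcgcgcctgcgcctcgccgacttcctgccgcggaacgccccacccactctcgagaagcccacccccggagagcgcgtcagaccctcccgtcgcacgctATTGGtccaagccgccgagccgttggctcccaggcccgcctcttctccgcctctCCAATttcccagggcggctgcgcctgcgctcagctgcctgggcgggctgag
Rbbp4: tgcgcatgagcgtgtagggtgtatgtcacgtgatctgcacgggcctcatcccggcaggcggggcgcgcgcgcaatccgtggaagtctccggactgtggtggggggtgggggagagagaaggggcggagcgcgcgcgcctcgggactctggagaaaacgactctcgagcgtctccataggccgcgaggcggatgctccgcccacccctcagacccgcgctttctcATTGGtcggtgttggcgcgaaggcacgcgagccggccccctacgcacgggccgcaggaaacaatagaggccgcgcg
Mtf2: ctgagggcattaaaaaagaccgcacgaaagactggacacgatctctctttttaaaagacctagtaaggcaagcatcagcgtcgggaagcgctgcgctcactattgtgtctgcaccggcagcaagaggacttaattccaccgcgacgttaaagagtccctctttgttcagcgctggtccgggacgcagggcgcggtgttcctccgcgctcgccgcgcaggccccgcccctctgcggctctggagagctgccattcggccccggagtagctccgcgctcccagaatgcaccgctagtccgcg
The Ezh2 window held 3 CCAAT boxes and 1 E2F-type match just past the start site, whereas the Ezh1 window held neither motif. Rbbp7 had 2 CCAAT boxes, Rbbp4 had 1, and the Mtf2 window shown had none of either. Over the 10 genes, 7 had a CCAAT box in at least 1 window (Mtf2 only in the window not shown) and 3 (Ezh2, Suz12 and Phf19) had an E2F-type match. Of all 32851 promoters in the table, 37.4% held a CCAAT box and 5.17% an E2F-type match. Those shares are per window and not per gene. The first window of each member held 17 to 41 CG dinucleotides, the other Jarid2 window 23 and the other Mtf2 window 2. The median over all promoters, counted per window, was 7. A match is a description of letters and does not show that a factor binds.

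Expected counts per library totalled 2724381 and 2963228 for TSA, 3398893, 3818798 and 4248336 for GSK-343, and 5974230 and 5124247 for DMSO. The treated and DMSO libraries differed in their deposited effective lengths. Gene length exceeded effective length by a median of 208.2 to 212.7 bases in the 5 treated libraries and by 49 bases in both DMSO libraries. Protein-coding nuclear genes held 78.2% to 93.4% of counts in treated libraries and 62.5% to 63.4% in DMSO. Mitochondrial genes held 4.31% to 19.1% in treated libraries and 25.5% to 26.8% in DMSO. Treatment against DMSO and this difference between libraries cannot be told apart, whereas TSA and GSK-343 had similar values of this length difference. The labels do not say what it comes from. Similar lengths do not make TSA and GSK-343 alike in other respects. Over 14870 genes, their log2 fold change had a Spearman correlation of -0.368 with GC content. The values were 0.347 for GSK-343 against DMSO and 0.126 for TSA against DMSO.

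Below, a level across libraries is in CPM (read counts scaled to a common library total) after TMM scaling, and levels of different genes are set side by side only in TPM, which is per length. Fold changes are log2 values ± SE from edgeR's quasi-likelihood test with Benjamini-Hochberg adjustment over 14907 genes, and a gene was called when its adjusted p was under 0.05. Fewer cells of a type and less RNA per cell cannot be told apart in these sorted bulk samples.

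With GSK-343 against DMSO, Rbbp7 and Rbbp4 rose and Mtf2 fell, which is 3 of the 9 tested members called, 2 higher and 1 lower. Over all genes, 39% were called, 17.7% higher and 21.3% lower, so the members' share is near the background. With TSA against DMSO, 1 of 9 was called, Rbbp7, which rose; over all genes 28.5% were called, 12.8% higher and 15.7% lower, so this share is below the background. Between TSA and GSK-343, edgeR called 0 of 9, beside 9.56% of all genes (4.56% higher and 5% lower). In that comparison 4 of 9 members had an unadjusted p under 0.05, beside 27.8% of all genes. DESeq2 called 2 members, beside 14.2% of all genes, and limma on log2 TPM called 1, beside 4.72%. The members' median log2 fold change was -0.31 for GSK-343 against DMSO, beside -0.04 over all genes. It was -0.03 for TSA against DMSO (all genes -0.05) and 0.35 for TSA against GSK-343 (all genes 0.00). Counts scaled by library total alone gave 63.7% of all calls higher for GSK-343 against DMSO (45.4% with TMM), 75.1% for TSA against DMSO (45.0% with TMM) and 71.1% for TSA against GSK-343 (47.7% with TMM). The comparisons with DMSO share the same 2 DMSO libraries. Without TSA replicate 2, 159 in place of 1425 genes were called between TSA and GSK-343 and 2056 in place of 4252 between TSA and DMSO.

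**Figure D1:**
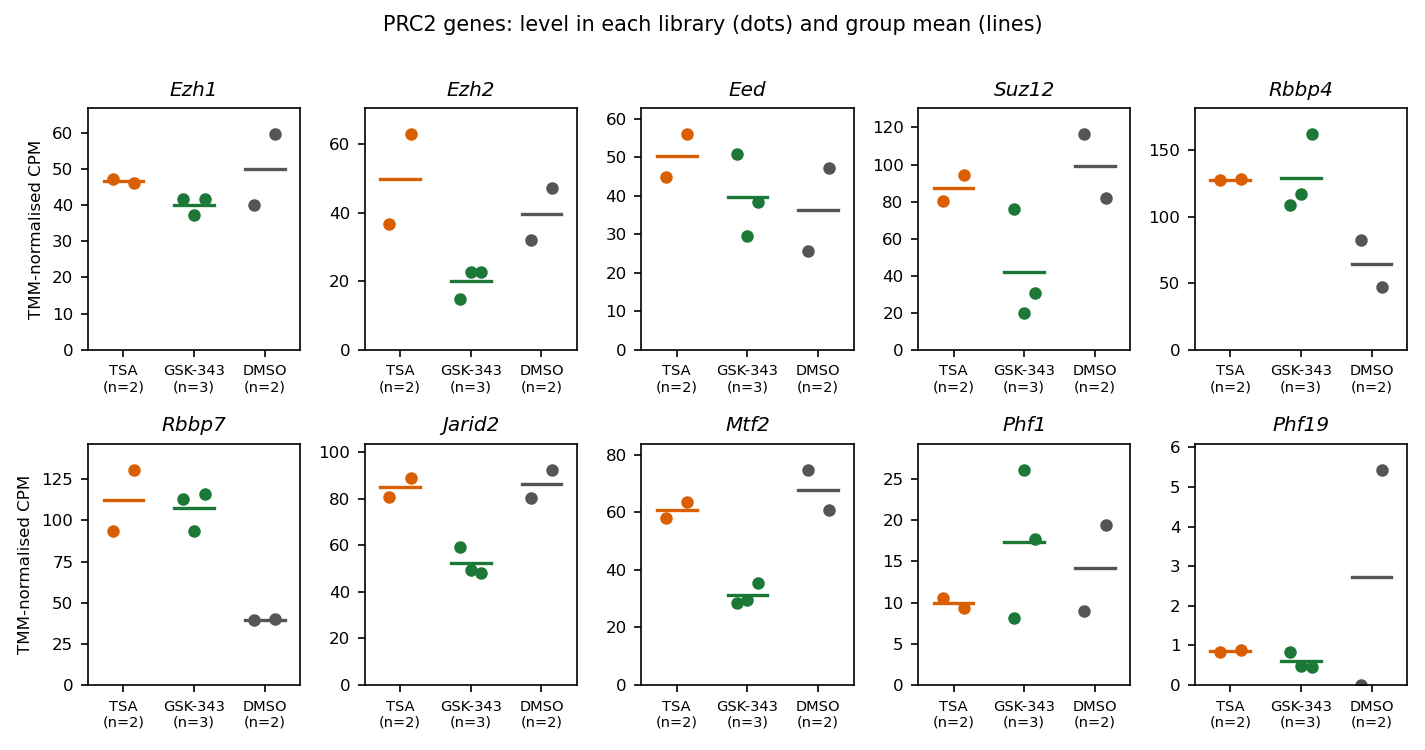
TMM-normalised CPM of each of the 10 genes, 1 panel per gene, with a dot per library and a line at the group mean, for TSA (n = 2), GSK-343 (n = 3) and DMSO (n = 2). The Rbbp7 dots of both treated groups lie above both DMSO dots, and the Mtf2, Jarid2 and Ezh2 dots of GSK-343 lie below those of TSA and DMSO.

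**Figure D2:**
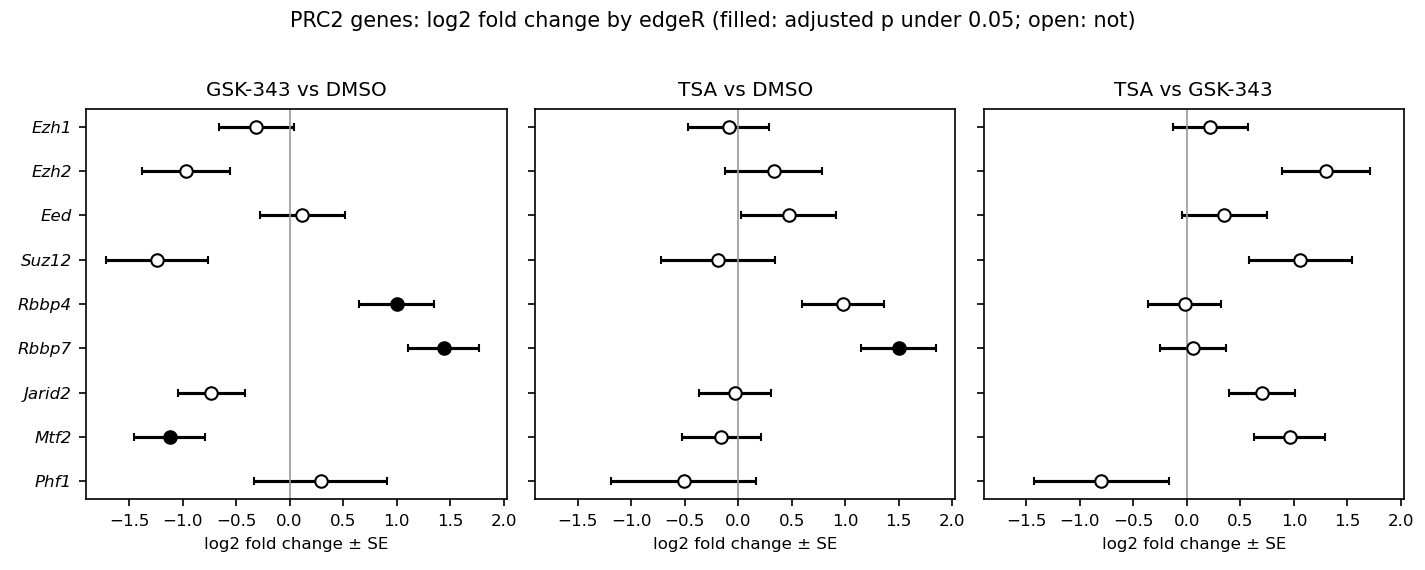
Log2 fold change ± SE of the 9 tested genes in 3 comparisons, from edgeR; filled circles have an adjusted p under 0.05 and open circles do not. Filled circles are Rbbp4, Rbbp7 and Mtf2 for GSK-343 against DMSO and Rbbp7 for TSA against DMSO, and the panel of TSA against GSK-343 has none.

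Neither methyltransferase gene was called by edgeR in any of the 3 comparisons, and the GSK-343 libraries held the lowest Ezh2 levels in CPM but not in TPM. Ezh2 (ENSMUSG00000029687.16, chr6:47530139-47595341, minus strand, GENCODE M21 on GRCm38) encodes the main catalytic subunit of dividing cells and the target of GSK-343. It had 36.7 and 63.0 CPM in TSA, 14.9, 22.7 and 22.75 CPM in GSK-343, and 32.1 and 47.15 CPM in DMSO. In CPM the 3 GSK-343 libraries were the lowest of the 7 and did not overlap either other group, while TSA and DMSO overlapped. The share of all genes with GSK-343 lowest in this way was not counted, here or for Suz12, Mtf2 and Jarid2. Over all genes, 48.4% had an unadjusted p under 0.05 by edgeR for GSK-343 against DMSO. For TSA against GSK-343 the log2 fold change was 1.30 ± 0.41, with an adjusted p of 0.0644 and an unadjusted p of 0.00781 by edgeR. DESeq2's Wald test gave 1.39 with an adjusted p of 0.0284, and 3 of 17 alternative settings called it. With a library left out, the Ezh2 value of this comparison ranged from 0.85 to 1.64. For GSK-343 against DMSO the edgeR log2 fold change was -0.97 ± 0.41 (adjusted p = 0.0792), and for TSA against DMSO it was 0.33 ± 0.45 (adjusted p = 0.618). With the GC and length trend removed, GSK-343 against DMSO gave -0.72 (edgeR adjusted p = 0.168). On the deposited TPM the picture against DMSO differed: limma on log2 TPM gave -0.04 for GSK-343 (adjusted p = 0.943) and 1.44 for TSA (adjusted p = 0.021). Ezh2 TPM was 86.7 and 139.7 in TSA, 37.4, 34.1 and 47.4 in GSK-343, and 33.3 and 48.9 in DMSO. On that scale GSK-343 and DMSO overlapped. An antisense lincRNA, Gm26625, overlaps Ezh2 and had 2 and 5 counts in TSA, 0, 1 and 0 in GSK-343 and 7.09 and 89.1 in DMSO. Strand use in the counting is not given in the sources used here, so reads of the 2 genes cannot be told apart.

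Ezh1 (ENSMUSG00000006920.14, chr11:101191115-101226463, minus strand) encodes the other methyltransferase, typical of resting cells. Its levels were 47.3 and 46.05 CPM in TSA, 41.7, 37.25 and 41.6 CPM in GSK-343, and 40.2 and 59.6 CPM in DMSO. Both treated groups fell within or close to the DMSO range. The log2 fold change was -0.09 ± 0.38 for TSA against DMSO (edgeR adjusted p = 0.877), -0.31 ± 0.35 for GSK-343 against DMSO (adjusted p = 0.5) and 0.22 ± 0.35 for TSA against GSK-343 (adjusted p = 0.731). None of the 17 alternatives called Ezh1 in any of the 3 comparisons.

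A ratio of 2 genes within a library does not depend on the scaling between libraries. The ratio of Ezh1 to Ezh2 counts was 1.29 and 0.732 in TSA, 2.79, 1.64 and 1.83 in GSK-343, and 1.24 and 1.26 in DMSO. The GSK-343 libraries had the 3 highest ratios of the 7, and TSA and DMSO overlapped. Per length, the ratio of TPM was 0.468 and 0.195 in TSA, 1.50, 0.751 and 0.376 in GSK-343, and 0.585 and 0.363 in DMSO. Ezh2 TPM thus exceeded Ezh1 TPM in 6 of 7 libraries, the exception being GSK-343 replicate 1, and on this scale the GSK-343 and DMSO libraries overlapped. On the log2 scale the mean TPM ratio was -1.73 ± 0.89 in TSA (SD, n = 2), -0.41 ± 1.0 in GSK-343 (SD, n = 3) and -1.12 ± 0.49 in DMSO (SD, n = 2). The abundance-weighted transcript length of Ezh1 ranged widely, at 1672 to 4070 bases in treated libraries and 2382 to 3450 in DMSO, and its TPM moves with that length.

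The core scaffold genes were not called. Eed (ENSMUSG00000030619.9, chr7:89954654-89980983, minus strand) encodes the reader of trimethylated lysine 27. It had 44.8 and 56.0 CPM in TSA, 51.0, 29.5 and 38.4 CPM in GSK-343, and 25.7 and 47.15 CPM in DMSO, and the 3 groups overlapped. Its log2 fold change was 0.47 ± 0.44 for TSA against DMSO (edgeR adjusted p = 0.452), 0.12 ± 0.40 for GSK-343 against DMSO (adjusted p = 0.834) and 0.35 ± 0.40 for TSA against GSK-343 (adjusted p = 0.608).

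Suz12 (ENSMUSG00000017548.15, chr11:79993106-80034123, plus strand) encodes the subunit on which the others assemble. It had 80.4 and 94.1 CPM in TSA, 75.7, 19.8 and 30.6 CPM in GSK-343, and 116 and 82.1 CPM in DMSO. All 3 GSK-343 libraries were below all libraries of the other groups, but replicate 1 lay just under them and far above its own replicates. The edgeR log2 fold change was -1.24 ± 0.48 for GSK-343 against DMSO (adjusted p = 0.0549) and 1.06 ± 0.48 for TSA against GSK-343 (adjusted p = 0.171). Without GSK-343 replicate 1 these became -1.97 (adjusted p = 0.00192) and 1.79 (adjusted p = 0.0135). Leaving out TSA replicate 1 or TSA replicate 2 also brought the comparison with DMSO under the threshold, with adjusted p of 0.0391 and 0.0437. In all, 8 of 17 alternatives called Suz12 for GSK-343 against DMSO. The value was smaller without DMSO replicate 1 (-0.93, adjusted p = 0.264) or GSK-343 replicate 2 (-0.90, adjusted p = 0.144), by limma on log2 TPM (-0.73, adjusted p = 0.374) and with the GC and length trend removed (-0.30, adjusted p = 0.611). TSA against DMSO gave -0.19 ± 0.53 (adjusted p = 0.822). The antisense lincRNA Gm26563, which lies within Suz12, had 3 and 6 counts in TSA, 1, 2 and 0 in GSK-343 and 82.9 and 45.0 in DMSO, so part of the DMSO reads of this locus may belong to either gene.

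Both histone-binding subunit genes rose with GSK-343 against DMSO, and Rbbp7 rose with TSA too. Rbbp7 (ENSMUSG00000031353.13, chrX:162760402-162779092, plus strand) encodes a WD-repeat protein that also serves in deacetylase complexes. It had 93.5 and 131 CPM in TSA, 113, 93.4 and 116 CPM in GSK-343, and 39.5 and 39.9 CPM in DMSO. The lowest treated library was far above the higher DMSO library, and the treated groups overlapped. Rbbp7 averaged 107 ± 12.3 CPM in GSK-343 (SD, n = 3) and 39.7 ± 0.275 CPM in DMSO (SD, n = 2), a log2 fold change of 1.44 ± 0.33 (edgeR adjusted p = 0.00503). This call held in 17 of 17 alternatives, between 1.31 and 2.07. TSA averaged 112 ± 26.4 CPM (SD, n = 2), and the log2 fold change against DMSO was 1.50 ± 0.35 (edgeR adjusted p = 0.00924). It was called in 14 of 17 alternatives and lost without DMSO replicate 1 (adjusted p = 0.0604), DMSO replicate 2 (adjusted p = 0.0528) or TSA replicate 2 (adjusted p = 0.0819). For TSA against GSK-343 the value was 0.06 ± 0.31 (adjusted p = 0.934).

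Rbbp4 (ENSMUSG00000057236.10, chr4:129307100-129335370, minus strand) encodes the close relative of RBBP7. It had 127 and 128 CPM in TSA, 108, 117 and 162 CPM in GSK-343, and 82.6 and 46.9 CPM in DMSO. Each treated library was above both DMSO libraries, which differed from each other by more than the TSA libraries did. The log2 fold change was 1.00 ± 0.35 for GSK-343 against DMSO (edgeR adjusted p = 0.0405) and 0.98 ± 0.38 for TSA against DMSO (adjusted p = 0.0706). For TSA against GSK-343 it was -0.02 ± 0.34 (adjusted p = 0.997). The call for GSK-343 sat close to the threshold and was kept in 8 of 17 alternatives. It was lost without DMSO replicate 2 (0.67, adjusted p = 0.271), GSK-343 replicate 2 (1.06, adjusted p = 0.0577) or GSK-343 replicate 3 (0.81, adjusted p = 0.126). For TSA, 5 of 17 alternatives made the call, 1 of them without GSK-343 replicate 1 (adjusted p = 0.0435).

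Within a library, the ratio of Rbbp4 to Rbbp7 counts was 1.36 and 0.978 in TSA, 0.960, 1.26 and 1.39 in GSK-343, and 2.09 and 1.17 in DMSO, with overlap of all groups. The ratio of Ezh2 to Rbbp7 counts was 0.393 and 0.481 in TSA, 0.132, 0.244 and 0.196 in GSK-343, and 0.815 and 1.18 in DMSO. Those 3 groups did not overlap, with DMSO highest and GSK-343 lowest. The same held for Suz12 to Rbbp7 counts, which were 0.860 and 0.719 in TSA, 0.671, 0.212 and 0.263 in GSK-343, and 2.94 and 2.06 in DMSO. Mtf2 to Rbbp7 gave 0.620 and 0.485 in TSA, 0.252, 0.316 and 0.305 in GSK-343, and 1.89 and 1.51 in DMSO, also without overlap. The protein-coding genes Sync and Txlng overlap Rbbp4 and Rbbp7 on the other strand. Sync had 0 and 3 counts in TSA, 0 in each GSK-343 library and 52.2 and 26.0 in DMSO. Txlng, which overlaps Rbbp7 over 174 bases, had 105 and 167 counts in TSA, 44.0, 48.0 and 50.0 in GSK-343, and 179 and 208 in DMSO. The ratios of Ezh2, Suz12 and Mtf2 share the denominator Rbbp7, itself called higher in both treated groups against DMSO. Their separation of DMSO is therefore not independent of that call. How many other pairs of genes separate the groups in this way was not counted. These ratios show unequal change between 2 genes and not which of them changed.

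Of the accessory subunit genes, Mtf2 fell with GSK-343 against DMSO and the other 2 tested were not called. Mtf2 (ENSMUSG00000029267.17, chr5:108065674-108109004, plus strand) encodes a Polycomb-like protein that binds CpG-rich DNA. It had 57.9 and 63.5 CPM in TSA, 28.4, 29.5 and 35.4 CPM in GSK-343, and 74.8 and 60.6 CPM in DMSO. The GSK-343 libraries lay close together and below the other 4, and TSA and DMSO overlapped. The protein-coding gene Tmed5 overlaps Mtf2 on the other strand over 2639 bases. Tmed5 had 76.6 and 84.0 counts in TSA, 162, 111 and 130 in GSK-343, and 174 and 123 in DMSO. With the strand setting not given, reads of the overlap may belong to either gene. Mtf2 averaged 31.1 ± 3.74 CPM in GSK-343 (SD, n = 3) and 67.7 ± 10.0 CPM in DMSO (SD, n = 2), a log2 fold change of -1.12 ± 0.33 (edgeR adjusted p = 0.0181). The call was kept in 11 of 17 alternatives and lost without DMSO replicate 1 (-0.92, adjusted p = 0.129) or GSK-343 replicate 2 (-1.08, adjusted p = 0.0535). After each library's log2 CPM was corrected for a trend with GC content and transcript length it turned to 0.22 (adjusted p = 0.629). The longest Mtf2 transcript has a GC content of 38.2%, the lowest of the 10 genes, and over 14870 genes the log2 fold change of GSK-343 against DMSO had a Spearman correlation of 0.347 with GC content. Its part in the Mtf2 result was not tested further.

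Between the treated groups, Mtf2 had a log2 fold change of 0.96 ± 0.33 for TSA against GSK-343 (edgeR adjusted p = 0.0826). DESeq2 gave 1.04 (adjusted p = 0.044) and limma on log2 TPM gave 1.52 (adjusted p = 0.0356), whereas removal of the GC and length trend gave 0.23 (adjusted p = 0.712). In this comparison the Spearman correlation of log2 fold change with GC content was -0.368 over all genes with a GC value. TSA did not separate from DMSO for this gene, at -0.16 ± 0.37 (adjusted p = 0.779).

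Jarid2 (ENSMUSG00000038518.15, chr13:44729474-44921643, plus strand) encodes a DNA-binding protein of the Jumonji family that has no demethylase activity and stimulates PRC2. It had 80.7 and 88.9 CPM in TSA, 59.1, 49.6 and 48.0 CPM in GSK-343, and 80.35 and 92.5 CPM in DMSO. TSA and DMSO overlapped almost fully and GSK-343 lay below both. The log2 fold change was -0.73 ± 0.31 for GSK-343 against DMSO (edgeR adjusted p = 0.0804), 0.70 ± 0.31 for TSA against GSK-343 (adjusted p = 0.165) and -0.03 ± 0.34 for TSA against DMSO (adjusted p = 0.964). For GSK-343 against DMSO, limma on log2 TPM called it (-1.38, adjusted p = 0.00739), and with the GC and length trend removed it turned to 0.11 (adjusted p = 0.795).

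The other Polycomb-like genes were low. Phf1 (ENSMUSG00000024193.7, chr17:26933052-26937908, plus strand) encodes a Tudor-domain protein that reads methylated lysine 36 of histone H3. It had 10.6 and 9.33 CPM in TSA, 8.17, 26.1 and 17.7 CPM in GSK-343, and 8.93 and 19.4 CPM in DMSO, and the groups overlapped. Its log2 fold change was -0.51 ± 0.68 for TSA against DMSO (edgeR adjusted p = 0.611), 0.29 ± 0.62 for GSK-343 against DMSO (adjusted p = 0.735) and -0.80 ± 0.63 for TSA against GSK-343 (adjusted p = 0.442). Phf1 overlaps the protein-coding gene Cuta on the other strand over 4090 bases. Cuta had 32.0 and 29.0 counts in TSA, 71.0, 106 and 195 in GSK-343, and 119 and 238 in DMSO. With the strand setting not given, reads of this overlap may belong to either gene. Phf19 (ENSMUSG00000026873.9, chr2:34893757-34914026, minus strand), which encodes the third Polycomb-like protein, had 3 and 3 counts in TSA, 3, 2 and 2 in GSK-343, and 0 and 21 in DMSO. At such counts no difference in Phf19 was detectable, and its one higher value came from DMSO replicate 2.

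**Figure D3:**
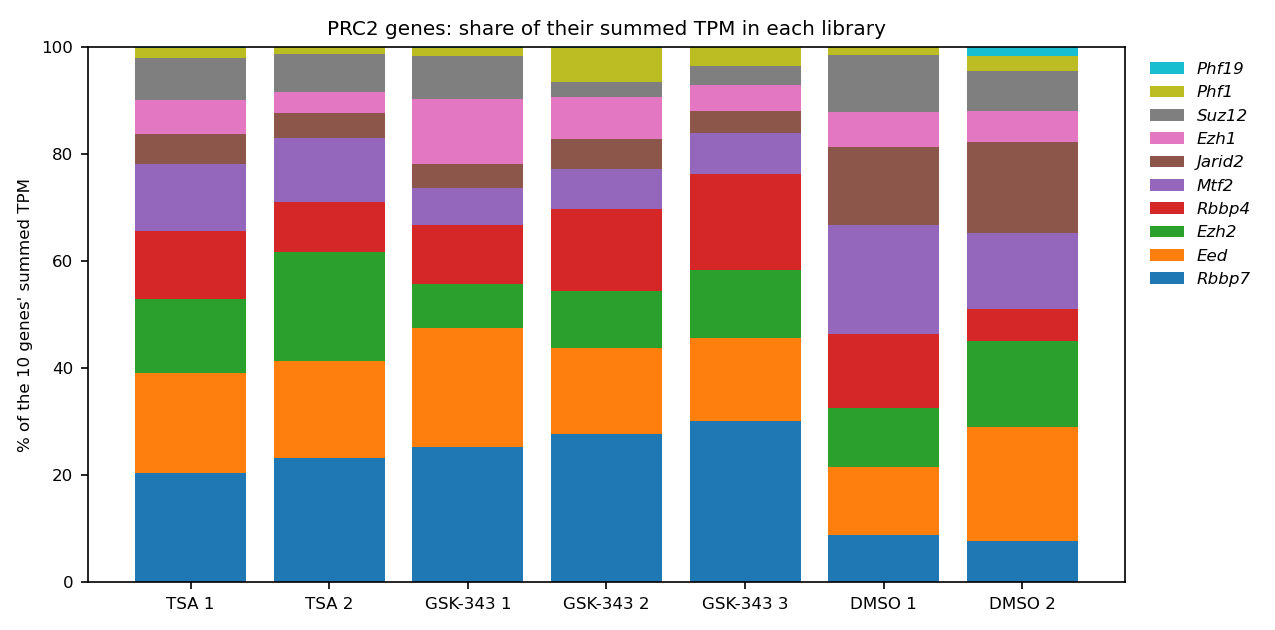
Share of the summed TPM of the 10 genes taken by each gene (stacked, percent), 1 bar per library, in the order TSA, GSK-343 and DMSO. The Rbbp7 segment is 20.5% to 30.2% in the 5 treated libraries and 7.64% to 8.81% in the DMSO libraries, and the Jarid2 segment is 4.17% to 5.63% against 14.6% to 17.0%.

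Set side by side per length, the make-up of PRC2 mRNA differed most between treated and DMSO libraries in Rbbp7 and Jarid2. Rbbp7 had the highest TPM of the 10 genes in each of the 5 treated libraries, at 128 and 160.0 TPM in TSA and 116, 89.2 and 112 TPM in GSK-343, against 26.2 and 23.1 TPM in DMSO. In DMSO the highest was Mtf2 in replicate 1 (60.5 TPM) and Eed in replicate 2 (64.4 TPM). Next after Rbbp7 came Eed in TSA replicate 1 (117 TPM) and in GSK-343 replicates 1 and 2 (102 and 51.9 TPM), Ezh2 in TSA replicate 2 (139.7 TPM) and Rbbp4 in GSK-343 replicate 3 (66.3 TPM). Jarid2 took 4.59% to 5.46% of the summed TPM in TSA, 4.17% to 5.63% in GSK-343 and 14.6% to 17.0% in DMSO. Its CPM did not separate TSA from DMSO, and its TPM was 34.2 and 31.5 in TSA, 20.1, 18.1 and 15.5 in GSK-343, and 43.5 and 51.3 in DMSO. Phf19 had the lowest TPM in each of the 7 libraries. Phf1 ranked just above it except in GSK-343 replicates 2 and 3, in which Suz12 took 2.68% and 3.47% and Phf1 6.51% and 3.54%.

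TPM divides by the length of the transcripts to which reads were assigned and has no TMM scaling, so the 2 scales differ in both. Phf1, with the same length in each library, had a log2 fold change of -0.51 for TSA against DMSO by edgeR and 0.74 by limma on log2 TPM, on which the median of all genes was 0.751. The abundance-weighted transcript length of Jarid2 was 5078 to 6148 bases in the treated libraries and 1878 to 2145 bases in DMSO. For Rbbp4 it was 4243 to 4415 bases in treated libraries and 2349 to 2721 in DMSO. Eed (1162 to 1308 bases in treated libraries, 791 to 822 in DMSO), Mtf2 (1814 to 2425 in treated libraries, 1449 to 1476 in DMSO) and Rbbp7 (1922 to 2129 in treated libraries, 1757 to 1800 in DMSO) were also longer in treated libraries, without overlap. Ezh2 (996 to 1396 in treated libraries, 1027 to 1147 in DMSO), Ezh1 and Suz12 overlapped, and Phf1 was assigned 2429 bases throughout. The same split separates the libraries by effective length, so a switch of transcripts and a difference in assignment cannot be told apart.

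**Figure D4:**
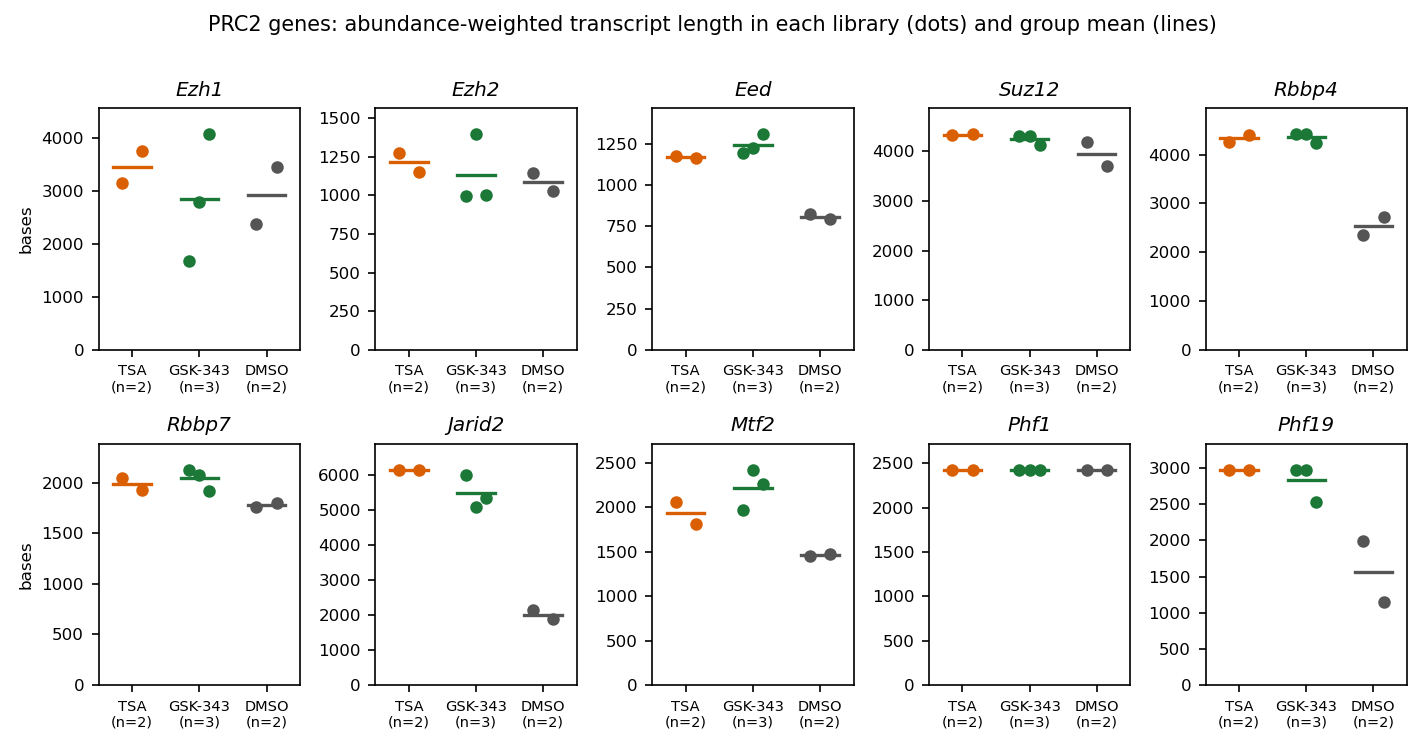
Abundance-weighted transcript length (bases) of each of the 10 genes as deposited, with a dot per library and a line at the group mean, for TSA (n = 2), GSK-343 (n = 3) and DMSO (n = 2). Jarid2 lies at 5078 to 6148 bases in treated libraries and 1878 to 2145 in DMSO, while Phf1 is at 2429 bases in each library.

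Other genes of the PRC2 setting came from lists of known members. Calls in each list are to be read beside the share of all genes called by edgeR. That share was 39% for GSK-343 against DMSO, 28.5% for TSA against DMSO and 9.56% for TSA against GSK-343. Of the 4 measured further PRC2 factors, GSK-343 against DMSO called 2, both lower, and TSA against DMSO called 0 by edgeR (1 at an unadjusted p under 0.05). Lcor, which gives rise to the PRC2 partner PALI1, had 28.7 and 36.7 CPM in TSA, 9.29, 4.84 and 6.89 CPM in GSK-343, and 82.4 and 59.3 CPM in DMSO. The 3 groups did not overlap. Lcor fell by 3.34 on the log2 scale with GSK-343 against DMSO (SE 0.43, edgeR adjusted p = 0.00019), a call kept in 17 of 17 alternatives. Lcor was the only one of the 4 called for TSA against GSK-343, at 2.22 ± 0.42 (adjusted p = 0.013), and this call was lost without TSA replicate 2 (2.01, adjusted p = 0.0787). Lcorl, its paralogue and the source of PALI2, was lower with GSK-343 than in DMSO (-1.85 ± 0.45, adjusted p = 0.00705), and the sign turned once the GC and length trend was removed (0.34, adjusted p = 0.522).

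Of the 2 demethylase genes for lysine 27, TSA against DMSO called 2 lower and GSK-343 against DMSO called 1 lower; between TSA and GSK-343 edgeR called 0, with 0 at an unadjusted p under 0.05. Kdm6a, the X-linked lysine 27 demethylase UTX, had 70.7 and 97.3 CPM in TSA, 94.3, 75.0 and 47.8 CPM in GSK-343, and 184 and 188 CPM in DMSO. Each treated library was below both DMSO libraries. The log2 fold change was -1.36 ± 0.34 for GSK-343 against DMSO (edgeR adjusted p = 0.00801) and -1.15 ± 0.39 for TSA against DMSO (adjusted p = 0.0416). The GSK-343 call was kept in 14 of 17 alternatives. It was lost with the GC and length trend removed (-0.13, adjusted p = 0.763), by limma on log2 TPM (-0.57, adjusted p = 0.322) and under total count scaling (-0.88, adjusted p = 0.0565). The TSA call was kept in 8 of 17. The same 3 settings gave -0.63 (adjusted p = 0.158), -0.06 (adjusted p = 0.926) and -0.44 (adjusted p = 0.387). It was also lost without DMSO replicate 1 (adjusted p = 0.125), DMSO replicate 2 (adjusted p = 0.122), GSK-343 replicate 2 (adjusted p = 0.0527), TSA replicate 1 (adjusted p = 0.264) or TSA replicate 2 (adjusted p = 0.103). Kdm6b, the other lysine 27 demethylase, fell by 1.97 on the log2 scale with TSA against DMSO (SE 0.49, edgeR adjusted p = 0.0121). That call was lost without DMSO replicate 2 (-1.72) or TSA replicate 2 (-1.48). It was also lost under total count scaling (-1.22, adjusted p = 0.0843) and by limma on log2 TPM (-0.74, adjusted p = 0.444).

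Of 5 methyltransferases of histone H3 lysine 36, a mark that hinders PRC2, GSK-343 against DMSO called 4 lower and 0 higher and TSA against DMSO called 2 lower. Over all genes, 21.3% and 15.7% were called lower in these comparisons. Nsd1, the enzyme that spreads dimethylation of lysine 36, had 138 and 95.6 CPM in TSA, 174, 136 and 102 CPM in GSK-343, and 459 and 434 CPM in DMSO. Each treated library was far below both DMSO libraries. Nsd1 fell by 1.93 on the log2 scale with TSA against DMSO (SE 0.37, edgeR adjusted p = 0.00338) and by 1.70 with GSK-343 against DMSO (SE 0.32, adjusted p = 0.00181). With the GC and length trend removed the GSK-343 value was -0.13 (adjusted p = 0.739), and the same setting ended the GSK-343 calls of Ash1l, Nsd2 and Nsd3. By limma on log2 TPM Nsd1 was called in neither comparison (TSA -0.82, adjusted p = 0.195; GSK-343 -0.96, adjusted p = 0.114). The Nsd2 call was also lost without DMSO replicate 1 (-0.61), GSK-343 replicate 2 (adjusted p = 0.117) or GSK-343 replicate 3 (adjusted p = 0.121). Further losses came with total count scaling (adjusted p = 0.234), only the 2 groups compared (0.0559), limma on log2 TPM (0.973) and the replicate block (0.113). Between TSA and GSK-343, edgeR called 0 of the 5, with 1 at an unadjusted p under 0.05. Of 6 genes of the PR-DUB complex, which removes the Polycomb mark from histone H2A, each comparison with DMSO called only 1. That is beside 39% of all genes for GSK-343 and 28.5% for TSA. The gene was Foxk1, lower in both treated groups (-2.57 ± 0.50 for TSA, adjusted p = 0.00382, and -2.68 ± 0.44 for GSK-343, adjusted p = 0.000801). TSA against GSK-343 called 1 of the 6, Asxl3, higher in TSA (1.44 ± 0.38, edgeR adjusted p = 0.0368), kept in 10 of 17 alternatives.

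RBBP4 and RBBP7 also belong to other complexes, among them NuRD, SIN3, DREAM and NURF. The list of their partner genes had 24 tested genes, including Chaf1b and Hat1 from outside the complexes just named. Of these 24, GSK-343 against DMSO called 4 higher and 7 lower, TSA against DMSO 2 higher and 5 lower, and TSA against GSK-343 2 higher and 3 lower. Their median log2 fold changes were -0.17, -0.49 and -0.18, beside -0.04, -0.05 and 0.00 over all genes. Of all genes, 39%, 28.5% and 9.56% were called in these comparisons. Gatad2b, a NuRD subunit gene, had 70.2 and 76.5 CPM in TSA, 61.8 to 97.1 CPM in GSK-343, and 439 to 555 CPM in DMSO. It fell by 2.76 on the log2 scale with TSA against DMSO (SE 0.36, edgeR adjusted p = 0.000438) and by 2.62 with GSK-343 against DMSO (SE 0.31, adjusted p = 0.00012). The TSA calls of Gatad2b (-1.07, adjusted p = 0.114) and Foxk1 (-1.37, adjusted p = 0.107) were lost by limma on log2 TPM. Sap18, a SIN3-associated protein gene, moved the other way, at 2.15 ± 0.37 for TSA against DMSO (adjusted p = 0.00192) and 2.70 ± 0.36 for GSK-343 against DMSO (adjusted p = 0.00024), in 17 of 17 alternatives each. For TSA against GSK-343 the list moved both ways. Chd3, a NuRD gene, had the smallest adjusted p, at -2.09 ± 0.43 (edgeR adjusted p = 0.0159), kept in 16 of 17 alternatives. Smarca5, 1 of the 2 genes called higher, was at 1.40 ± 0.36 (adjusted p = 0.0335), kept in 11 of 17. Mta1 and Mta3, subunits of NuRD, were lower in TSA than in GSK-343, by -1.49 ± 0.37 (adjusted p = 0.0298) and -1.43 ± 0.39 (adjusted p = 0.0396). Both calls were lost without GSK-343 replicate 2 (adjusted p = 0.0802 and 0.0588) or GSK-343 replicate 3 (adjusted p = 0.0591 and 0.101). They were also lost without TSA replicate 2 (-1.13 and -1.03). Total count scaling (adjusted p = 0.0687 and 0.0914) and limma on log2 TPM (adjusted p = 0.138 and 0.137) ended both too. The Mta3 call was further lost with the replicate block (-1.38, adjusted p = 0.052) and with the GC and length trend removed (-1.27).

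Because EZH2 prevails in dividing cells, genes of proliferation and the E2F and RB family were listed too. Of 19 tested proliferation genes (30 listed), TSA against DMSO called 5 higher and 0 lower, GSK-343 against DMSO 4 higher and 2 lower, and TSA against GSK-343 2 higher and 0 lower. In the same order, 28.5%, 39% and 9.56% of all genes were called. Ccne1, the cyclin of entry into S phase, had 69.8 and 79.3 CPM in TSA, 10.7, 9.92 and 13.3 CPM in GSK-343, and 0.446 and 2.07 CPM in DMSO. The 3 groups were far apart. For TSA against GSK-343 its log2 fold change was 2.72 ± 0.48 (edgeR adjusted p = 0.01), and the call was lost without TSA replicate 2 (2.60, adjusted p = 0.057). Mki67, a marker of cycling cells, stayed low, at 2.50 and 4.08 CPM in TSA, 0.845, 0.726 and 0.230 CPM in GSK-343, and 10.3 and 8.03 CPM in DMSO. It fell by 3.88 on the log2 scale with GSK-343 against DMSO (SE 0.89, adjusted p = 0.00507). Of the 4 genes called higher there by edgeR, Ccne1 (3.17, adjusted p = 0.00223), E2f1 (6.62, 0.00643) and Mcm7 (2.37, 0.00797) had the smallest adjusted p. The Mcm7 call was lost with the GC and length trend removed (1.75, adjusted p = 0.0577). For TSA against DMSO, Ccne1, E2f1, Cdk1 and Rrm2 had the smallest adjusted p of the 5 called higher. E2f1, Cdk1 and Rrm2 had 0 counts in both DMSO libraries.

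Of 11 tested E2F and RB genes, TSA against DMSO called 4 higher and 0 lower, GSK-343 against DMSO 4 higher and 1 lower, and TSA against GSK-343 1 higher. This list shares genes with the proliferation list, among them E2f1 and E2f7, so the E2f1 calls against DMSO count in both. The shares of all genes called were 28.5%, 39% and 9.56% in that order. E2f6, the E2F that acts with Polycomb proteins, rose in both, at 1.80 ± 0.42 for TSA against DMSO (edgeR adjusted p = 0.00859) and 1.74 ± 0.39 for GSK-343 against DMSO (adjusted p = 0.00448). The TSA call was lost without DMSO replicate 1 (adjusted p = 0.0667). Rb1, the retinoblastoma gene, had 84.6 and 174 CPM in TSA, 33.5, 28.5 and 17.9 CPM in GSK-343, and 60.3 and 68.9 CPM in DMSO. The GSK-343 libraries were lowest, the DMSO libraries in between and the TSA libraries highest, without overlap. For TSA against GSK-343 its log2 fold change was 2.28 ± 0.40 (edgeR adjusted p = 0.00998). The call was lost without TSA replicate 2 (1.65) and by limma on log2 TPM (2.40, adjusted p = 0.0741).

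Across the 7 libraries the genes whose log2 CPM tracked Ezh2 most closely, of 9779 ranked, were Dld, Ppm1d, Lig4 and Alg13, with Pearson coefficients of 0.981, 0.965, 0.959 and 0.957. These are descriptions over 7 libraries in 3 groups, which share the group differences. Dld, a subunit of mitochondrial dehydrogenase complexes, had 52.3 and 97.1 CPM in TSA, 30.1, 35.8 and 37.0 CPM in GSK-343, and 47.5 and 73.8 CPM in DMSO. Among the members, Mtf2 (0.825) and Jarid2 (0.814) came closest to Ezh2 and Rbbp4 (-0.308) and Rbbp7 (-0.239) were farthest.

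The sorted cells carried supporting cell markers in all libraries: none of the 20 was at 0 in any group. Their summed level was 6311 to 8026 CPM in TSA, 16670 to 19630 CPM in GSK-343 and 13940 to 17010 CPM in DMSO. One marker, S100a1, had 1230 to 1252 CPM in TSA, 3505 to 7801 CPM in GSK-343 and 453 to 641 CPM in DMSO. Without S100a1, left out after its values were seen, the sums were 5059 to 6796 CPM in TSA, 11830 to 13170 CPM in GSK-343 and 13490 to 16370 CPM in DMSO, so GSK-343 was then below DMSO. Of the 20, TSA against DMSO called 9 lower and 0 higher, GSK-343 against DMSO 6 lower and 3 higher, and TSA against GSK-343 7 lower and 0 higher. Over all genes, in the same order, 15.7%, 21.3% and 5% were called lower and 12.8%, 17.7% and 4.56% higher. Hair cell markers summed to 657 to 2203 CPM in TSA, 510 to 1254 CPM in GSK-343 and 392 to 487 CPM in DMSO, with 10 of 15 higher for TSA against DMSO and 8 of 15 for GSK-343 against DMSO. Neuron markers summed to 812 to 848 CPM in TSA, 179 to 500.0 CPM in GSK-343 and 270 to 288 CPM in DMSO. Markers of Schwann cells (154 to 195 CPM in TSA, 154 to 314 in GSK-343, 89.0 to 148 in DMSO) and mesenchyme (112 to 269 in TSA, 161 to 294 in GSK-343, 166 to 182 in DMSO) were present in each group. Immune markers summed to at most 21.0 CPM and endothelial and blood markers to at most 19.4 CPM in any library. The part of these marker differences in the levels of the PRC2 genes was not tested.

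**Figure D5:**
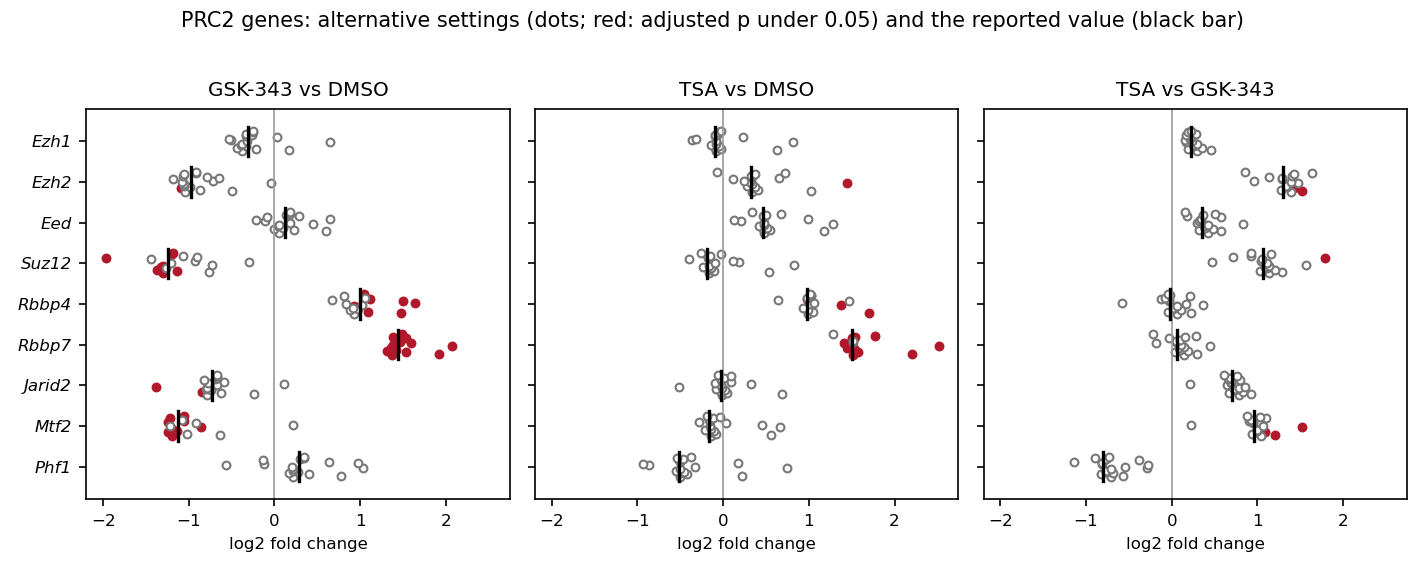
Log2 fold change of the 9 tested genes under 17 alternative settings (dots; red where the adjusted p is under 0.05) and as reported (black bar), in 3 comparisons. For Rbbp7 the dots of both comparisons with DMSO lie between 1.28 and 2.52, whereas for Mtf2 in GSK-343 against DMSO they run from -1.24 to 0.22.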

How the data were processed

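RNA of GFP-sorted supporting cells was sequenced in 7 libraries made with a kit for very small RNA inputs. The submitters' processing notes name STAR, RSEM, DESeq2 and the mm10 build; versions, annotation release and strand setting are not given in the sources used here. Per the file headers, the authors deposited for each gene RSEM's expected count, TPM, FPKM, and transcript and effective lengths. The deposited FPKM values, scaled by the authors per length and sequenced fragments, were not used. The deposited expected counts divide ambiguous reads among genes and are unscaled, and the deposited TPM values are per length and scaled to 1 common sum in each library. Of 48709 gene IDs, 48349 matched GENCODE M21 without the version suffix (41341 with the same version), which gave symbols and coordinates.

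Expected counts were rounded and tested with edgeR 4.0.16 (R 4.3.3): filterByExpr kept 14907 genes, scaling was TMM (factors 1.32 and 1.16 for TSA, 1.045, 1.08 and 1.02 for GSK-343, 0.75 and 0.753 for DMSO), and 1 quasi-likelihood model of the 7 libraries had 4 residual degrees of freedom. The SE was obtained by dividing the size of a fold change (log2) by the root of its F statistic. Alternatives used DESeq2 1.42.0 and limma 3.58.1, on log2(TPM + 0.5). A fold on that scale understates the change of low genes. A count of 3, the limit that a count of 0 allows, is 0.670 to 0.874 TMM-normalised CPM and covers counting error only. Tables were made with Python 3.11.15, pandas 2.3.3 and numpy 2.4.6, and figures with matplotlib 3.10.9. The model was tested on simulated data. Replicates were checked for duplicates: chi-square per degree of freedom was 15.8 to 47.3 between replicates.

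The genes named are the 10 members, up to 4 called genes per list and comparison by smallest adjusted p, and the 4 genes that tracked Ezh2 best. Members, lists, comparisons and alternatives were chosen with earlier results of these data known. No set test was made, and with 2 or 3 libraries in a group no permutation test could pass the threshold.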

Additional observations from a re-analysis of the deposited data

How the results depend on the processing

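There were 17 alternatives: scaling by library total or by DESeq2 size factors, a fit limited to 2 groups or to protein-coding nuclear genes, a low-count filter left out or raised to 50 counts in 2 libraries, DESeq2's Wald test, limma on log2 TPM, the replicate number as a block, removal of a GC and length trend per library, and each of the 7 libraries left out. Rbbp7 in GSK-343 against DMSO kept its call in each of them. The median of all genes moved to 0.437, 0.662 and 0.196 under total count scaling and to 0.269, 0.751 and 0.278 under limma on log2 TPM (GSK-343 against DMSO, TSA against DMSO, TSA against GSK-343); changes of the members are to be read against those shifts. Without a low-count filter it was -2.106, -1.518 and 0, and with the GC trend removed 0.118, 0.001 and -0.136. A difference of the size of the SE, 0.31 to 0.68, cannot be resolved with groups of 2 and 3, and the cause of the changes below was not tested.

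Members called in GSK-343 against DMSO numbered 3 as reported, 5 under the 50-count filter, 1 with the replicate block and 1 to 4 with a library left out. In TSA against DMSO they numbered 1 as reported, 2 under total count scaling, with 2 groups or with DESeq2, 3 with limma and 0 to 2 with a library left out. In TSA against GSK-343 they numbered 0 as reported, 2 under total count scaling, the 50-count filter or DESeq2, 1 with limma and 0 to 1 with a library left out (1 without GSK-343 replicate 1).

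Genes called in TSA against DMSO numbered 4252 as reported, 7369 with limma and 2056 (without TSA replicate 2) to 5124 with a library left out; in GSK-343 against DMSO the range was 4667 to 6405 around 5809. In TSA against GSK-343 they numbered 1425 as reported, 913 with limma, 841 with the replicate block, and 159 (without TSA replicate 2) to 1878 with a library left out. Genes of the related lists called numbered 29, 20 and 10 in the 3 comparisons; with a library left out they were 19 to 30, 10 to 26 and 0 to 12, and in TSA against GSK-343 limma gave 4 and the replicate block 5. Those lists held 69 tested genes as reported, and 39%, 28.5% and 9.56% of all genes were called by edgeR in the 3 comparisons. By limma, 56.9%, 67.0% and 82.7% of the calls over all genes were higher, and 34.3% in TSA against GSK-343 with the GC trend removed.

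The labels do not state that replicate numbers pair the samples. Deviations of same-numbered libraries correlated between -0.094 and 0.04. These values show no shared shift of same-numbered libraries, but they cannot settle whether cultures were paired. The block ended the calls of Rbbp4 (0.84, adjusted p = 0.153) and Mtf2 (-1.22, adjusted p = 0.0576) in GSK-343 against DMSO.

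Signs turned as follows; no value that turned passed the threshold. For Rbbp4 in TSA against GSK-343 (-0.02) the value was 0.06 with DESeq2 size factors and with DESeq2, 0.22 under total count scaling, 0.11 under the 50-count filter, 0.02 with 2 groups, 0.01 with protein-coding genes, 0.36 with limma, 0.17 with the block, and -0.13 to 0.21 with a library left out. Under total count scaling Ezh1 was 0.17 for GSK-343 against DMSO, and for TSA against DMSO Ezh1 was 0.63, Suz12 0.53, Jarid2 0.69, Mtf2 0.56 and Phf1 0.22. With limma Ezh1 was 0.65 for GSK-343 against DMSO, and for TSA against DMSO Ezh1 was 0.82, Suz12 0.83, Mtf2 0.66 and Phf1 0.74. With the GC and length trend removed, GSK-343 against DMSO gave -0.11 for Eed, 0.11 for Jarid2, 0.22 for Mtf2, -0.57 for Phf1, 0.34 for Lcorl and 0.54 for Nsd2; TSA against DMSO gave 0.18 for Suz12, 0.32 for Jarid2 and 0.45 for Mtf2, and TSA against GSK-343 -0.18 for Rbbp7. Eed was -0.01 under the 50-count filter, and Jarid2 in TSA against DMSO 0.05 without a filter and 0.02 with 2 groups. With a library left out, GSK-343 against DMSO ranged from -0.21 to 0.65 for Eed, -0.13 to 0.98 for Phf1 and -0.53 to 0.03 for Ezh1. TSA against DMSO then ranged from -0.40 to 0.12 for Suz12, -0.28 to 0.03 for Mtf2, -0.32 to 0.23 for Ezh1, -0.09 to 0.09 for Jarid2, -0.93 to 0.17 for Phf1 and -0.07 to 0.72 for Ezh2, and TSA against GSK-343 from -0.22 to 0.28 for Rbbp7.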
